A study of Mus musculus with 8 samples.

Results

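PRDM10 is a zinc finger protein that binds DNA in a sequence-specific way, and its peaks at 4 enzyme genes, *Prdx2*, *Selenow*, *Por* and *Dlst*, are described here. *Prdx2* encodes peroxiredoxin 2, a thiol peroxidase of the cytosol that reduces hydrogen peroxide and is recycled by thioredoxin. *Selenow* encodes selenoprotein W, a small selenocysteine-containing protein with a thioredoxin-like fold. *Por* encodes NADPH-cytochrome P450 oxidoreductase, the flavoprotein of the endoplasmic reticulum that passes electrons from NADPH to cytochromes P450, heme oxygenase and squalene monooxygenase. *Dlst* encodes the dihydrolipoamide succinyltransferase, the core subunit of the mitochondrial 2-oxoglutarate dehydrogenase complex of the tricarboxylic acid cycle. The members are 4 of the 21951 protein-coding genes of GENCODE vM21. The 4 genes were chosen by the signal values, ranks and summit positions of their peaks in these same lists, so these values are given as a description, with no test.

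The ChIP-seq was made in *Prdm10* F/F; *ROSA26*-CreERT2 mESCs. These are embryonic stem cells of the mouse with a Cre recombinase that becomes active on exposure to 4-hydroxytamoxifen (4-OHT) and then cuts out part of the floxed *Prdm10* gene. Both groups carry the floxed alleles and the Cre transgene, and received either 50 nM 4-OHT or the vehicle ethanol (EtOH) for 24 h. According to the methods, the cells were then washed, and the harvest for ChIP came later than the end of this exposure. Each group had 3 ChIP samples, made with different PRDM10 antibodies, and 1 input sample. Peak lists are the deposited data analysed here, 1 for each group and pooled over its antibodies, with 528 peaks in the EtOH list and 176 in the 4-OHT list. No peak therefore has a replicate error, and the lists do not hold the reads behind a peak. Neither the deletion of *Prdm10* nor the identity of the cells could be checked in peak lists, which hold no reads and no expression values. The paper reports that it verified the deletion in DNA, transcript and protein. It also states that every peak of the EtOH cells was lost or much weaker after 4-OHT. PRDM10 protein left after deletion and signal not due to PRDM10 cannot be told apart in the 4-OHT list.

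All peaks that overlapped a gene body, its 5 kb upstream or its 1 kb downstream in mm10 (GRCm38) were assigned to that gene. The windows of the 4 genes held 5 EtOH peaks, 2 at *Selenow* and 1 at each of the others, and 2 4-OHT peaks, at *Selenow* and *Por*. An EtOH peak lay in the window of 2.48% of all protein-coding genes, and a 4-OHT peak in that of 0.733%. Nothing is read from the difference to the 4 genes, which were picked for having peaks.

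The strongest EtOH peaks of *Prdx2*, *Selenow* and *Dlst* lay over the start of the gene, and that of *Por* over a start inside the gene as annotated. The second *Selenow* peak lay upstream of the start. The DNA under them is shown first, because the match to the PRDM10 consensus differs between the genes. The consensus core, read from the motif logo of the study, is TGGTNNNNNCC, with 6 fixed letters and 5 free ones. It was searched on both strands, where it reads GGNNNNNACCA on the opposite strand, and no other motif was searched. Each line below gives 30 bases of the GRCm38.p6 genome, 5′ to 3′ on the strand of the match, with the letters that match the 6 fixed ones in capitals.
*Prdx2*, exact match, plus strand, chr8:84969640-84969669: tgcctggtgTGGTttgggCCacgcataaaa
*Selenow*, exact match, plus strand, chr7:15922597-15922626: atgccataaTGGTtcagtCCtcagggcggt
*Por*, upstream exact match, minus strand, chr5:135689008-135689037: ctctgctgtTGGTacggcCCtcgtgggtcc
*Por*, downstream exact match, plus strand, chr5:135689221-135689250: tgtgtgatcTGGTcggtaCCgaggagcgca
*Dlst*, exact match, plus strand, chr12:85110773-85110802: cacggttagTGGTtcgctCCgaacacccct
*Prdx2*, match with T4C, minus strand, chr8:84969541-84969570: ggcgccgcgTGGcccggtCCacacgctttc
*Selenow*, match with C11T, minus strand, chr7:15922377-15922406: ccccgcactTGGTttgctCtgactcgtgag

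The last 2 lines are matches to all but 1 of the fixed letters. The first of them is the match of that kind nearest to the summit of *Prdx2*, and the other is the best site of the strongest *Selenow* peak, which holds no exact match. In T4C and C11T the base of the core comes first, then the position in the core, where 1 is its 5′ base, then the base of the genome. Longer stretches that reach up to the transcription start site (TSS), outside annotated untranslated regions and on the strand of the gene, show where the exact matches sit. In them the fixed letters of exact matches are in capitals, and those of *Selenow* and *Por* read as GG and ACCA since these matches are on the opposite strand.
*Selenow*, minus strand, chr7:15922403-15922702: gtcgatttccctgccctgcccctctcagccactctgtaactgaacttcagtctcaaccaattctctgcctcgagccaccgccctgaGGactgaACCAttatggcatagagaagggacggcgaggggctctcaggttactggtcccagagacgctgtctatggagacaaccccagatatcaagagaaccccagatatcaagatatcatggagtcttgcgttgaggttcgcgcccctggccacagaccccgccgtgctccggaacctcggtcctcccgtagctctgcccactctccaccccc
*Por*, plus strand, chr5:135688927-135689035: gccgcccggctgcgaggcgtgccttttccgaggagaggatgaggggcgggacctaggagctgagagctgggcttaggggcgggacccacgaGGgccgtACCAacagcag
*Dlst*, plus strand, chr12:85110675-85110832: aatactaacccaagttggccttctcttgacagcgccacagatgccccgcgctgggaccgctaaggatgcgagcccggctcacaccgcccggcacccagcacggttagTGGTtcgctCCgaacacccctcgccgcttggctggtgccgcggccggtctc

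*Prdx2* (ENSMUSG00000005161) occupies chr8:84969587-84974834 on the plus strand. Its EtOH peak, chr8:84969297-84969746, had a signal value of 363 and ranked 123 of 528. The signal value is the enrichment given by the peak caller, and was compared only within a list. The summit, at position 84969569, lay 18 bp upstream of the TSS of Prdx2-203, the first of the gene. No 4-OHT peak lay in the window. The peak is not private to *Prdx2*, since 3 gene windows cover it. *Rnaseh2a*, which encodes the catalytic subunit of ribonuclease H2, is transcribed from the minus strand and overlaps *Prdx2* by 181 bp. The nearest TSS of any gene was that of Rnaseh2a-208, a processed transcript of *Rnaseh2a* without a coding sequence, and the summit lay 12 bp downstream of it. The *Rnaseh2a* gene itself starts at position 84969767, 180 bp from the start of *Prdx2* and outside the peak, while its coding transcripts Rnaseh2a-202 and Rnaseh2a-210 start inside the peak. Within *Rnaseh2a* the summit fell in exon 1 of Rnaseh2a-202, in the 5′UTR, and in an intron of Rnaseh2a-209. The third gene, *Gm49661*, also on the minus strand, starts 154 bp from *Prdx2*. All 450 bp of the peak are untranslated exon in at least 1 coding transcript, which is why only 30-base sites are shown for this gene. The exact core match was centred 85 bp from the summit, 67 bp downstream of the TSS and inside the 5′UTR of *Prdx2*. Nearer to the summit, 13 bp away, was the T4C match, with 5 of the 6 fixed letters.

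*Selenow* (ENSMUSG00000041571) occupies chr7:15917208-15922402 on the minus strand and has 1 annotated transcript, Selenow-201. The first EtOH peak, chr7:15922304-15922590, had a signal value of 345 and ranked 131, with its summit 38 bp upstream of the TSS. The second, chr7:15922427-15922856, had a signal value of 70.8 and ranked 339, with its summit 240 bp upstream. The 2 peaks overlap by 164 bp, their summits are 202 bp apart, and the signal value of the first was 4.87 times that of the second. Of the 528 EtOH peaks, 88 overlap another EtOH peak in this way. The strongest peak held no exact core match. Its best site was the C11T match, 48 bp from the summit and 10 bp inside the 5′UTR. The second peak held the exact match, 31 bp from its summit and 209 bp upstream of the TSS. That match starts 16 bp past the end of the strongest peak as called, and the region merged from the 2 overlapping peaks holds it. The 4-OHT peak, chr7:15922374-15922659, had a signal value of 96.2 and ranked 59 of 176. Its summit lay 29 bp upstream of the TSS and 9 bp from the summit of the stronger EtOH peak, and it also overlaps the weaker one. The exact match lies inside the 4-OHT peak, 180 bp from its summit.

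*Por* (ENSMUSG00000005514) occupies chr5:135670033-135735326 on the plus strand, and its EtOH peak, chr5:135688927-135689276, was the strongest of the 4 genes. It had a signal value of 476 and ranked 71 of 528. The summit lay 19085 bp downstream of the annotated start of the gene, which belongs to Por-208. The principal transcript of the gene, Por-201, starts further in, and the summit lay 82 bp downstream of that TSS, in the 5′UTR of exon 1. It lay 40 bp upstream of the TSS of Por-202, another start within the peak. In Por-208 and Por-209 the same position is intronic. The peak held 2 exact core matches, on opposite strands. The first was centred 95 bp before the summit, 13 bp upstream of the TSS of Por-201, and the second 117 bp beyond the summit, 199 bp downstream of that TSS. The summit lay between them. The 4-OHT peak, chr5:135688510-135689649, had a signal value of 99.9 and ranked 55 of 176. It spans the whole EtOH peak, and the 2 summits were 38 bp apart.

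*Dlst* (ENSMUSG00000004789) occupies chr12:85110833-85134845 on the plus strand. The EtOH peak, chr12:85110675-85110935, had a signal value of 374, ranked 119 of 528, and had its summit 19 bp upstream of the TSS of Dlst-201. No 4-OHT peak lay in the window, and the nearest one on the chromosome was 23164337 bp away. *Prox2*, a homeobox gene on the minus strand, has a transcript, Prox2-204, that starts 74 bp from *Dlst* and is annotated as a processed transcript without a coding sequence. The protein-coding transcripts of *Prox2* start at positions 85106431 and 85097081, outside the peak. The exact core match lay in the gap between the starts of Prox2-204 and *Dlst*, 46 bp upstream of *Dlst* and 27 bp from the summit. Of the 5 exact matches it was the nearest to its summit.

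**Figure D1:**
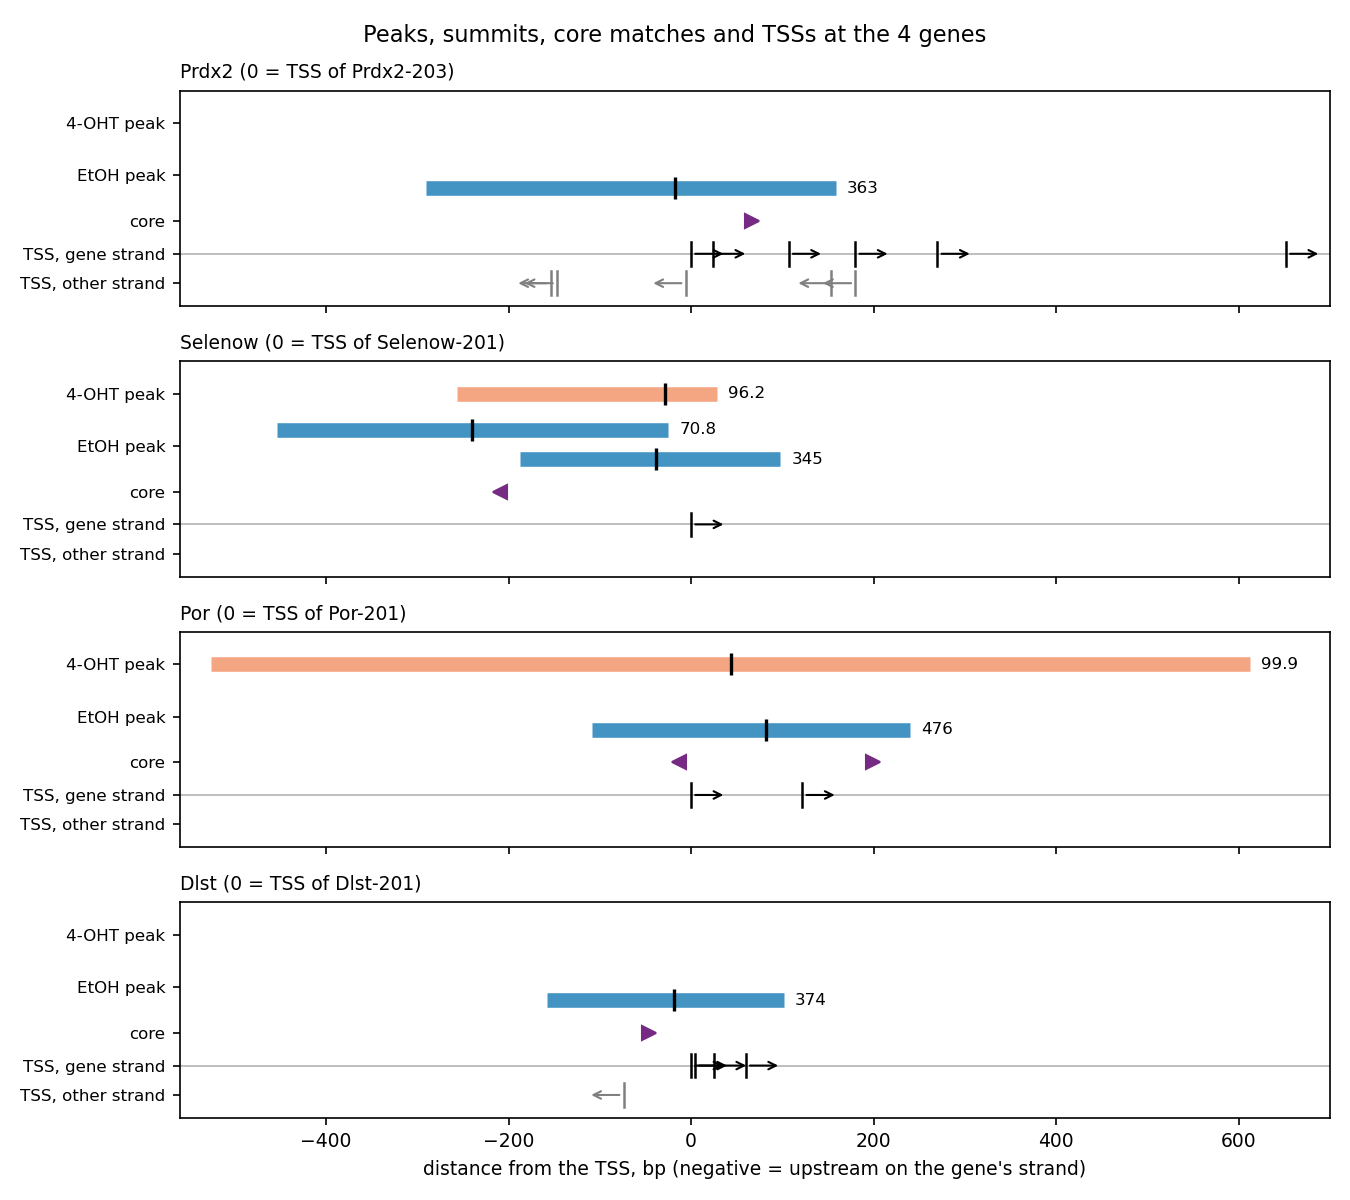
Peaks at the 4 genes along the distance in bp from the TSS named in each panel, with EtOH peaks in blue, 4-OHT peaks in orange, summits as black ticks and signal values beside the bars. Triangles are exact core matches and point along their strand, and arrows are annotated TSSs of the gene (black) or of other genes (grey). The strongest summits lie 18 to 38 bp upstream of the start of *Prdx2*, *Selenow* and *Dlst*, and 82 bp downstream of that of Por-201.

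The 4 strongest EtOH peaks had signal values of 345, 363, 374 and 476, so the highest was 1.38 times the lowest. All 4 ranked within the first 132 of 528 peaks, and stood 2.63 to 3.62 times above the list median of 131. *Prdx2*, *Selenow* and *Dlst* ranked within 12 places of each other, between 119 and 131, and with pooled lists no error is available to order them. All 7 peaks, in both lists, had the maximum IDR score of 1000, which stands for the highest reproducibility between pseudo-replicates. This was the case for 95.5% of EtOH peaks but for 55.7% of 4-OHT peaks.

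The peaks next to the members in signal value, the 2 above and the 2 below, differed from them by 0.721 to 8.83 units of signal value. For *Por* these were nearest to *Myl12b* (481), *Mtmr14* (481), *Cd3eap* (474) and *Tcp11l2* (471). Those of *Dlst* were nearest to *Cenpe* (378), *Nr6a1* (377), *Ttll7* (369) and *Frat1* (367). *Prdx2* lay below *Frat1* and *Pfdn4* (363) and above *Ss18l1* (357) and *Nop56* (355). *Selenow* lay below *Mir7000* (347) and *Ndst2* (347) and above *Pafah1b3* (342) and *Mat2a* (336). Of these 15 peaks, 9 overlapped a 4-OHT peak.

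**Figure D2:**
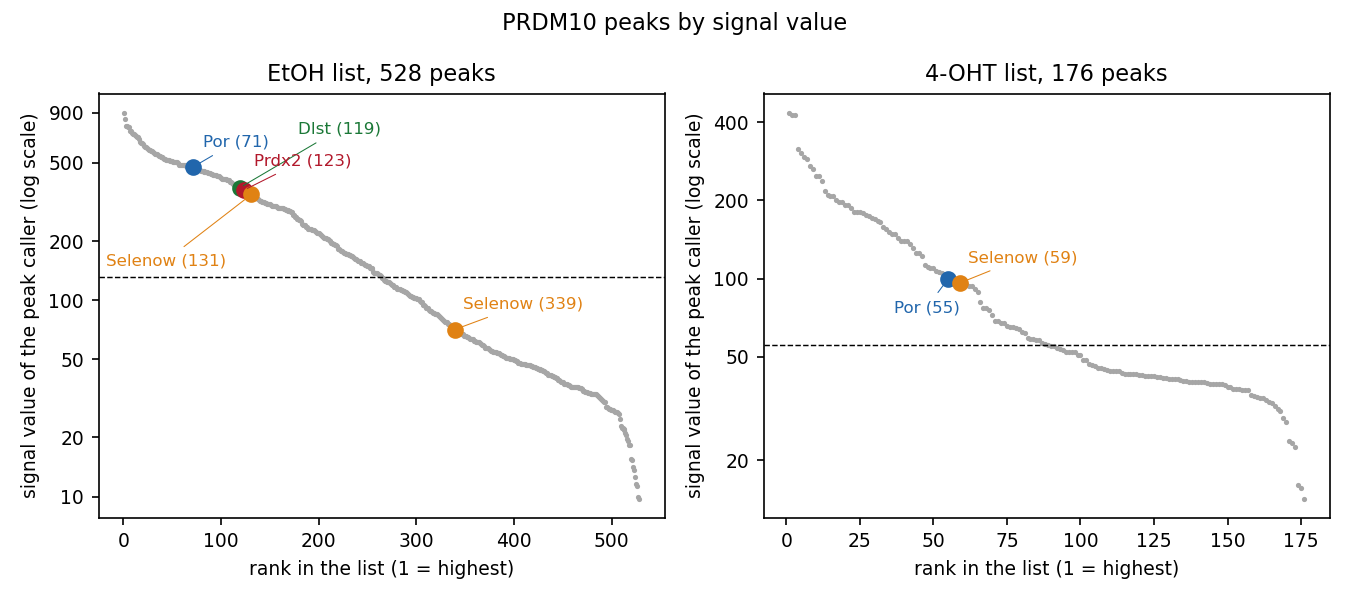
Signal value (log axis) against rank for every peak of the EtOH list (left, 528 peaks) and the 4-OHT list (right, 176 peaks), with the peaks of the 4 genes in colour, their ranks in brackets and the list median dashed. The scales of the 2 lists are not comparable. The strongest EtOH peak of each gene ranks between 71 and 131, and the 4-OHT peaks of *Por* and *Selenow* rank 55 and 59.

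The distance from summit to TSS was part of the choice of the genes and is given as a description. The nearest TSS of any gene was 12 bp from that summit for *Prdx2*, 19 bp for *Dlst*, 38 bp for *Selenow* and 40 bp for *Por*. For the second *Selenow* summit it was 240 bp away. Over all EtOH peaks, those away from promoters included, the median was 148.5 bp, and 34.3% of summits lay within 100 bp of a TSS. Just beyond the windows, the nearest EtOH peak was 4051 bp past the downstream edge for *Prdx2*, with its summit nearest to *Junb*, and had a signal value of 441 at rank 90. A 4-OHT peak with a signal value of 76.8 at rank 68 lay at the same place. For *Dlst* the next EtOH peak was 23.7 kb outside the window, with a signal value of 74.2, and for *Selenow* and *Por* it was 997 and 1797 kb away.

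After 4-OHT the 4 genes split evenly. The strongest EtOH peaks of *Selenow* and *Por* shared 1 bp or more with a 4-OHT peak, and those of *Prdx2* and *Dlst* did not. Over the whole EtOH list, 107 of 528 peaks (20.3%) overlapped a 4-OHT peak. Among the 57 other EtOH peaks ranked from 71 to 131, the range spanned by the 4 genes, 27 did (47.4%, Wilson 95% interval 35.0 to 60.1, which covers the sampling of peaks only). *Por* stood 50th and *Selenow* 78th by EtOH signal value among the 107 overlapping peaks, and their 4-OHT peaks ranked 55 and 59, 1.79 and 1.73 times above the median of that list. A loss of signal cannot be measured from lists scaled separately.

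The 2 overlaps were of different shape. At *Selenow* the peaks shared 217 bp, which is 75.6% of the EtOH peak and 75.9% of the 4-OHT peak. At *Por* they shared 350 bp, all of the EtOH peak but 30.7% of the 4-OHT peak, which is 1140 bp wide. That width was given to 125 of the 176 4-OHT peaks, so the *Por* peak has the commonest width of its list, while the *Selenow* peak is among the 51 with another. When at least 50% of both peaks had to overlap, only *Selenow* of the 4 genes remained. The summit shift was 9 bp at *Selenow* and 38 bp at *Por*, against a median of 30 bp over all 121 overlapping pairs (quartiles 9 and 80 bp).

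The exact core was present in the strongest EtOH peak of 3 of the 4 genes, all but *Selenow*, and in the second peak of *Selenow*. With overlapping peaks merged, it was present in the region of all 4 genes. In windows of 300 bases centred on the summit, 59.7% of all EtOH peaks held it (95% interval 55.4 to 63.8), as did 71.9% of the 57 peaks of like rank (59.2 to 81.9). Of 26734 RefSeq promoters on GRCm38 without a peak, taken from 250 bases before to 50 after the gene start, 13.3% held it. All 4 members matched a RefSeq promoter, and all 4 of these promoters held the core, against 13.7% of all 26994 promoters. The members were picked for a peak at the start, so this is a description. According to the methods, the motif itself was discovered in the EtOH peaks. A higher share in peaks than in promoters is therefore not independent of how the core was found. Allowing 1 mismatch in the fixed letters raised the shares to 98.3% of EtOH peaks and 90.5% of promoters without a peak. A match of that kind, counted by its fixed letters alone, therefore separates peaks from promoters little.

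The distance from core to summit varied among the genes. The nearest exact match lay 27 bp from the summit at *Dlst*, 31 bp at the second *Selenow* peak, 85 bp at *Prdx2* and 95 bp at *Por*. Over the 335 other EtOH peaks with a core the median was 57 bp (quartiles 28 and 99.5 bp). A shorter distance was found in 24.2% of these peaks for *Dlst*, and in 71.9% for *Por*.

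Not all exact cores matched the wider consensus equally. A base matrix was built from 150 core matches within 50 bp of the summit in the EtOH peaks outside these genes, with 4 flanking bases on each side, and each site was scored as a sum of log2 odds. The upstream *Por* match scored highest, at 15.3, followed by *Prdx2* at 14.3, *Selenow* at 13.8 and *Dlst* at 13.2. The downstream *Por* match scored 6.56, close to the C11T match of *Selenow* at 6.40, although its 6 fixed letters are all present. The T4C match of *Prdx2* scored 9.42, above both of these and below the other exact matches. The best score in 300 bases reached that of the upstream *Por* site in 19.7% of the 523 other EtOH peaks and in 0.187% of promoters without a peak. For *Dlst*, the lowest of these 4 exact sites, the shares were 39.2% and 1.43%. For the strongest *Selenow* peak they were 75.7% and 25.2%, so that site scored within the range common among promoters without a peak. Sites of this list built the matrix, so the comparison between EtOH peaks and promoters is not independent of it.

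The fixed letters are the same in every exact match, so only the 5 free letters between TGGT and CC can differ. The matches of *Selenow* (TGGTtcagtCC) and *Dlst* (TGGTtcgctCC) had 3 of the 5 in common. *Prdx2* (TGGTttgggCC) and the upstream *Por* match (TGGTacggcCC) had 2 of 5 in common with each of them. The downstream *Por* match (TGGTcggtaCC) had 0 or 1 of 5 in common with the others. The commonest letter at position 6 of the matrix sites, C (48.0%), was present in 3 of the 5 matches, and that at position 8, G (52.0%), also in 3.

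**Figure D3:**
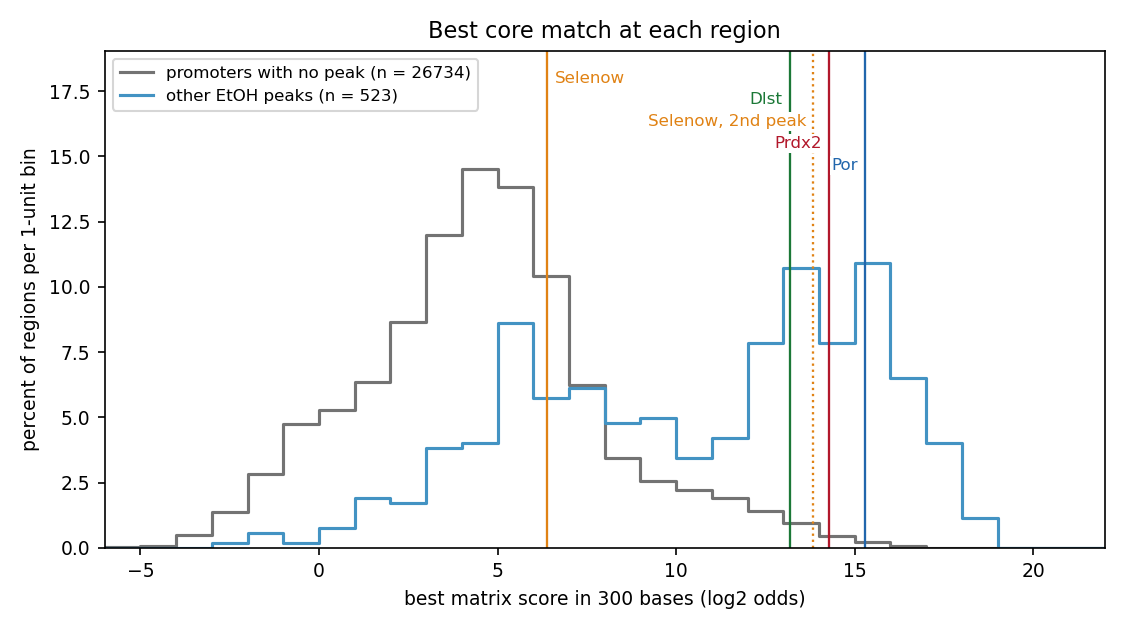
Percent of regions by their best matrix score in 300 bases (log2 odds, bins of 1 unit) for 26734 promoters without a peak (grey) and 523 other EtOH peaks (blue), with vertical lines for the peaks of the 4 genes. The best sites at *Por*, *Prdx2*, *Dlst* and the second *Selenow* peak (dotted) score 13.2 to 15.3, where promoters are rare, and the strongest *Selenow* peak scores 6.40.

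Base composition also set the second *Selenow* peak apart from the first and from the peaks of the other genes. In 300 bases centred on the summit, GC content was 67.3% at *Prdx2*, 68.3% at *Por*, 67.0% at *Dlst*, 61.7% at the first and 52.7% at the second *Selenow* peak, against a median of 58.8% over all EtOH peaks. The ratio of observed to expected CpG was 0.980 at *Dlst*, above 91.1% of EtOH peaks, 0.850 at *Prdx2*, 0.767 at *Por* and 0.737 and 0.389 at the *Selenow* peaks. The second *Selenow* peak, which holds the exact core, had 8 CpGs in 300 bases and *Dlst* had 32.

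Other genes of the same pathways were taken from 10 lists with 105 genes in all. An EtOH peak lay in the window of 9 of them, the 4 members and 5 others, and no 4-OHT peak lay in the window of any but *Selenow* and *Por*. The 5 others are 4.95% of the 101 genes that are not members, beside 2.48% of all protein-coding genes. The lists were chosen with earlier results of these data known, so nothing is read from this difference.

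Among peroxide-reducing systems, *Prdx2* was the only 1 of 6 peroxiredoxin genes with a peak. *Srxn1*, 1 of 12 genes of the thioredoxin, glutaredoxin and sulfiredoxin list, had an EtOH peak with a signal value of 301 at rank 152, and its summit lay 94 bp downstream of the TSS. Its product, sulfiredoxin, reactivates peroxiredoxins whose cysteine has been over-oxidised. Of 16 other antioxidant genes, *Sod2* and *Nqo1* had a peak. *Sod2*, which encodes the mitochondrial superoxide dismutase, had a signal value of 434 at rank 92, above those of *Prdx2*, *Selenow* and *Dlst*, with the summit 17 bp downstream of the TSS of Sod2-204. *Nqo1*, the NAD(P)H quinone dehydrogenase, had a signal value of 107 at rank 292.

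Of 24 selenoprotein genes, *Selenow*, *Selenoh* and *Selenop* had an EtOH peak. *Selenoh*, which encodes a nuclear selenoprotein, had a signal value of 105 at rank 294, and *Selenop*, which encodes the secreted selenium carrier, had 68.6 at rank 345. Both were below the list median. The peak of *Selenoh* is also covered by the windows of *Tmx2* and *Gm28635*. None of the 7 genes for selenocysteine insertion had a peak. Among 12 diflavin reductase and microsomal electron carrier genes *Por* alone had one. None of 7 genes for enzymes that take electrons from its product, such as *Cyp51*, *Sqle* and *Hmox1*, had a peak. *Dlst* was alone among 13 genes of the 2-oxoacid dehydrogenase complexes, without its partner subunits *Ogdh* and *Dld*, and among 18 of the tricarboxylic acid cycle. None of the 3 genes for lipoic acid synthesis, which make the cofactor that the product of *Dlst* carries, had a peak. An EtOH peak lay in the window of 2.48% of all protein-coding genes, and the members were picked for having one. Nothing is therefore read from a lone or missing peak in lists this short. The peaks of *Srxn1*, *Sod2*, *Nqo1*, *Selenoh* and *Selenop* each held an exact core, as did 64.2% of all EtOH peaks over their whole width. None of the 5 overlapped a 4-OHT peak, against 20.3% of all EtOH peaks, and with 5 peaks nothing is read from either count.

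**Figure D4:**
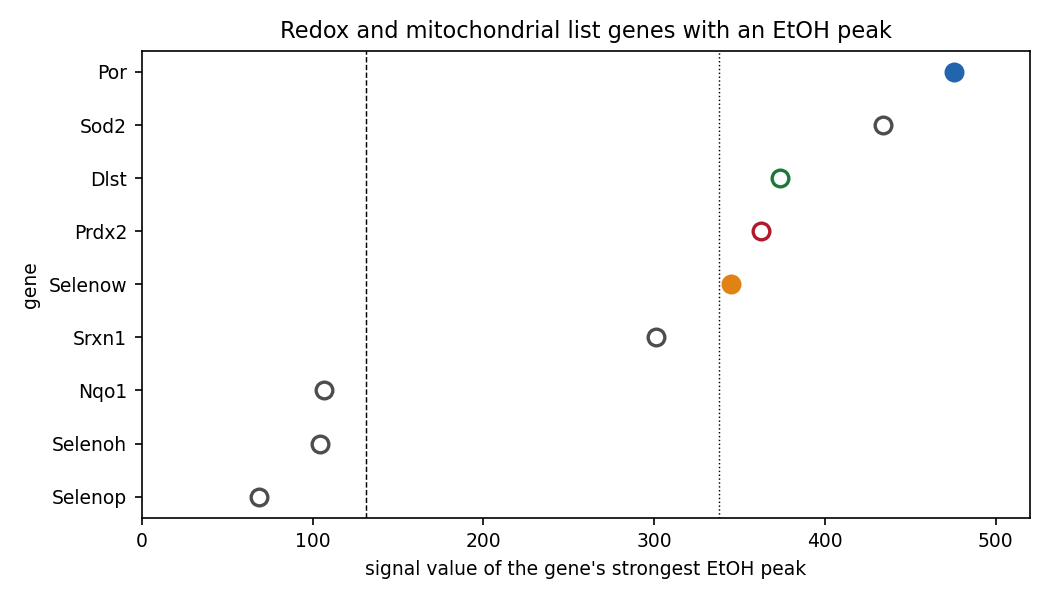
Signal value of the strongest EtOH peak for the 9 list genes that have one, filled where a 4-OHT peak overlaps it and open where none does, with the list median (131) dashed and the upper quartile (338) dotted. *Por*, *Sod2*, *Dlst*, *Prdx2* and *Selenow* lie above the upper quartile, and *Nqo1*, *Selenoh* and *Selenop* below the median.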

How the data were processed

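PRDM10 ChIP-seq peak lists from 2 groups of mESCs were used. According to the methods, the authors aligned reads to mm10 with BWA 0.7.13, used Picard 2.10.6 and SAMtools 1.2, called peaks with SPP on each sample and on the pool of 3 antibodies, removed blacklisted regions and kept peaks with an IDR under 0.05 between pseudo-replicates. The deposited score is the authors' IDR score, up to 1000. The deposited signal value is the enrichment from the authors' peak caller. The summit is an offset in bp in the deposited lists. Read counts and samples per antibody were not analysed here, and the methods give depth only as an approximate number of raw reads per library.

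Peaks were ranked by signal value, joined to GENCODE vM21 windows (5 kb upstream to 1 kb downstream) and compared by overlap of at least 1 bp. Distances are to the nearest TSS, negative upstream. Shares have Wilson 95% intervals. The matrix used a pseudocount of 1. The named genes are the members, genes whose windows hold their peaks, the 2 peaks above and below each in signal value, and list genes with a peak. *Junb*, *Cyp51*, *Sqle*, *Hmox1*, *Ogdh* and *Dld* were named after the values were seen. The members, the lists and the core were chosen with earlier results of these data known. The scan, matrix and overlap steps were tested on simulated data. No test was run, as the lists have no replicates. Indexing used samtools 1.23.1 and figures matplotlib 3.10.9. Tables and sequences were handled in Python 3.11.15 (pandas 2.3.3, pyfaidx 0.9.0.4, numpy 2.4.6).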

Additional observations from a re-analysis of the deposited data

How the results depend on the processing

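No paired analysis was possible because each list used here is pooled over the 3 antibodies, and for the same reason no replicate could be left out. Counts of peaks and of list genes kept their values when the window was the TSS with 1 kb upstream and when an IDR score of at least 830 was required. Merging overlapping peaks joined the *Selenow* pair and left 4 EtOH regions. The number of genes whose strongest EtOH peak overlaps a 4-OHT peak fell from 2 to 1 when 50% of both peaks had to overlap, since the 4-OHT peak of *Por* is 1140 bp wide. The core stayed in the strongest peak of 3 genes within 100 bp of the summit and without soft-masked bases. Merging overlapping peaks, an alternative chosen after seeing the data, gave a core to all 4 genes. Allowing 1 mismatch gave one to all 4 genes, to 98.3% of EtOH peaks and to 90.5% of promoters without a peak. The summit of *Prdx2* changed side, to 12 bp downstream, when TSSs of any gene were used, because the non-coding transcript Rnaseh2a-208 starts nearby. The share of peaks at or above the strongest peak of a gene rose on merging, from 23.3 to 25.4% for *Prdx2*, 24.8 to 27.1% for *Selenow*, 22.5 to 24.6% for *Dlst* and 13.4 to 14.7% for *Por*. Among the 369 peaks within 500 bp of a TSS it was 31.7, 33.3, 30.6 and 19.0% in the same order, so the standing of the 4 genes was lower among promoter peaks. The lists hold no reads and are pooled, so no signal value has an error.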

Other observations

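The genes without a 4-OHT peak, *Prdx2* and *Dlst*, have TSSs of both strands inside their EtOH peak, that on the minus strand at *Dlst* being of the non-coding Prox2-204 alone, and *Selenow* and *Por*, which have one, have TSSs of 1 strand. Over the EtOH list, 15 of 49 peaks with TSSs of both strands overlapped a 4-OHT peak (30.6%, Wilson 95% interval 19.5 to 44.5), as did 72 of 251 with TSSs of 1 strand (28.7%, 23.4 to 34.6) and 20 of 228 without a TSS (8.77%, 5.75 to 13.2). Among the other peaks ranked 71 to 131, the counts were 1 of 8 for both strands (12.5%, 2.24 to 47.1) 20 of 37 for 1 strand (54.1%, 38.4 to 69.0) and 6 of 12 without a TSS (50.0%, 25.4 to 74.6). The split was chosen after the values of the 4 genes were seen, and the difference was not tested.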
